A study of Rattus norvegicus with 5 samples.

Results

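The genes described here encode the receptor system by which the proximal tubule takes filtered protein back from the urine. They were 8 genes chosen by name for their part in this system, with earlier results of these data known, Lrp2, Cubn, Amn, Dab2, Lrpap1, Clcn5, Ocrl and Ankra2, out of 14506 genes that a probe set with a single symbol represented, and all 8 were measured. Each was read from its brightest probe set by the mean over the 5 arrays, and only Ankra2 had a further one, so that 9 of the 29215 probe sets belonged to them. Gene expression was measured on whole-transcript arrays in kidney proximal tubular cells from Sprague-Dawley rats with type I diabetes. In 1 group the isolated cells were given C-peptide, the connecting peptide cleaved from proinsulin, for 2 h (3 arrays, animals 1 to 3), and in the other they were left untreated (2 arrays, animals 1 and 2). All cells of both groups came from diabetic kidneys, so no array stands for a healthy animal. How diabetes was produced, the age of the rats, the C-peptide dose and whether equal animal numbers mean the same rat were not found in the labels. The comparison asks what C-peptide does to transcription within hours.

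Megalin (Lrp2) and cubilin (Cubn) are giant receptors of the apical membrane that bind albumin, vitamin carrier proteins, hormones and many other small filtered proteins. Cubilin has no membrane-spanning segment of its own and depends on amnionless (Amn) to reach the surface, while megalin carries the complex inward through clathrin-coated pits with the help of adaptors such as Dab2. The vesicles then mature into acid endosomes, for which the chloride/proton exchanger Clcn5 and the inositol lipid phosphatase Ocrl are needed, and loss of either in people gives low molecular weight proteinuria (Dent disease and Lowe syndrome).

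After 2 h of C-peptide, megalin, cubilin and Clcn5 stood 1.75-, 1.68- and 1.74-fold above their level in untreated cells, and the other 5 genes 1.08- to 1.23-fold. None of the 8 passed at adjusted p 0.05 in limma (adjusted p = 0.185 to 0.800), and neither did any other probe set, a share of 0% of 29215. The lowest adjusted p of a member under the 15 other settings of that test was 0.0508. At an unadjusted p under 0.05 there were 3321 probe sets, 1478 higher and 1843 lower. Megalin, cubilin and Clcn5 were the 3 members at an unadjusted p under 0.05, all higher, where 5.95% of all genes were. On the arrays where these genes were higher, 18 of 19 listed proximal tubule markers were measured. All 18 lay above 0, as did 7959 of all 14506 genes, and the median log2 difference of the markers was 0.50. Measured against those markers, megalin, cubilin and Clcn5 differed by 0.17, 0.12 and 0.16, with intervals that span 0.

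The stretches around the start sites of megalin, cubilin and amnionless are printed because the receptors differed by about the same amount and amnionless, cubilin's partner, by less. Clcn5 differed by as much as the receptors (0.80), and its windows are described but not printed. RefSeq (build GRCr8) gave 8 start sites for 7 of the members. Each sequence runs 5′ to 3′ on the gene's strand, from 250 bases before the start to 50 after it. Capitals mark matches, on either strand, to the GC box GGGCGG and to CAAAGTNCA, the core bound by HNF4 factors, which do not overlap here. The windows are chr3:74754486-74754785 (minus strand) for Lrp2, chr17:81501645-81501944 (minus strand) for Cubn and chr6:136132317-136132616 (plus strand) for Amn.
Lrp2: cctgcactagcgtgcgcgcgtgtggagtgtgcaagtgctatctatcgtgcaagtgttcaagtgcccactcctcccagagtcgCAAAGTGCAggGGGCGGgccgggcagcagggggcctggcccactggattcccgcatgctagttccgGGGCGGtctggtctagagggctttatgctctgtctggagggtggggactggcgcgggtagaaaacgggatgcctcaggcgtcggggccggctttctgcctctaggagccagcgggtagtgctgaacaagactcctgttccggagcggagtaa
Cubn: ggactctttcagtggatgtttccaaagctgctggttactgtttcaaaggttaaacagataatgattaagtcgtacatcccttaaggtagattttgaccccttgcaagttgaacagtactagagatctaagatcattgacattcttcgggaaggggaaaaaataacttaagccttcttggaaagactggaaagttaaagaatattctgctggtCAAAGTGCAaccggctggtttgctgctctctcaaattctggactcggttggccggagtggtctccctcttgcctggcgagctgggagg
Amn: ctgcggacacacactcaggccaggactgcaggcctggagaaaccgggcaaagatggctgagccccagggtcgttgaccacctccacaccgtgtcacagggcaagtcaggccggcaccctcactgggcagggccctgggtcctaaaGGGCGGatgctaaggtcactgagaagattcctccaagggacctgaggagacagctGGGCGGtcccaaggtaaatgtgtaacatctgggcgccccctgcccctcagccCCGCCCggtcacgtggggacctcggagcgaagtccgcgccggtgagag

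The Lrp2 window held 2 GC boxes and 1 HNF4 core, the Cubn window 1 HNF4 core and no GC box, and the Amn window 3 GC boxes and no HNF4 core. Of 33469 windows of this length over all genes, 33.1% held the GC box and 1.24% the HNF4 core. The Lrp2 window was rich in G and C (63.3%), as was that of Amn (65.0%), while the Cubn window had 44.7% beside a median of 51.7% over all windows. Neither GTTAAT, a core of the site of HNF1 factors (7.45% of all windows) nor the TATA box TATAAA (14.2%) was in any of the members' 8 windows. GC boxes were also in the windows of Lrpap1 (4) and Ankra2 (1) and in 1 of the 2 windows of Clcn5. No window of Clcn5, Dab2, Lrpap1 or Ankra2 held the HNF4 core. The letters searched were chosen with these sequences in view, and a match describes the letters only.

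Megalin, the receptor that carries the system, is coded by Lrp2. Its normalised intensity, on a linear scale after all arrays were brought to the same distribution, was 3444, 3476 and 4991 with C-peptide (animals 1, 2 and 3, in that order here and for the genes that follow). Untreated animals 1 and 2 gave 2383 and 2086. Every C-peptide array lay above both untreated arrays, and animal 3 was the highest. The means were 3970.3 ± 884 (SD, n = 3) and 2235 ± 210.1 (SD, n = 2). The log2 difference, C-peptide minus untreated on the log2(intensity + 16) scale, was 0.81 ± 0.20 (SE; 95% interval 0.33 to 1.28), with an adjusted p of 0.208 and an unadjusted p of 0.00468 in limma. In the intensities as deposited the arrays read 2953.5, 3771 and 5176 with C-peptide and 2333 and 2378 without, again with no overlap, although the array of C-peptide animal 1 was the dimmest of the 5 by its median.

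Cubilin, which binds albumin and the intrinsic factor-vitamin B12 complex, followed megalin closely. Cubn read 1809.6, 1581 and 2190.5 on the C-peptide arrays and 1129 and 1049 on the untreated ones. The groups did not overlap, and the order of the C-peptide arrays had animal 3 highest and animal 2 lowest. Its means were 1860.3 ± 308 (SD, n = 3) and 1089 ± 56.7 (SD, n = 2), a log2 difference of 0.75 ± 0.17 (SE; 95% interval 0.34 to 1.16; limma adjusted p = 0.185, unadjusted p = 0.00315). As deposited, its intensities were 1473, 1702 and 2176 against 1186 and 1179, with animal 1 the lowest of the C-peptide arrays.

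Amnionless, without which cubilin stays inside the cell, differed by less between the groups. Amn read 366, 253.5 and 312 with C-peptide and 255 and 238 without. It was the member whose groups overlapped, since the array of C-peptide animal 2 lay just below that of untreated animal 1. Its log2 difference was 0.30 ± 0.18 (SE; 95% interval -0.12 to 0.72; limma adjusted p = 0.576). The upper end of that interval lies just under the differences of cubilin (0.75) and megalin (0.81). Their own 95% intervals, 0.34 to 1.16 and 0.33 to 1.28, overlap that of amnionless.

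Lrpap1 codes for the receptor-associated protein, a chaperone that keeps megalin free of ligand on its way through the endoplasmic reticulum. Its intensities were 1684.5, 1559 and 1668 with C-peptide and 1474 and 1409 without. The arrays of each group lay close together and did not overlap, at means of 1637 ± 68.2 (SD, n = 3) and 1441.5 ± 46.3 (SD, n = 2). The log2 difference was 0.18 ± 0.14 (SE; 95% interval -0.14 to 0.50; limma adjusted p = 0.672), and 0.01 in the values as deposited, where the groups overlapped.

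Dab2 and Ankra2 code for proteins that bind megalin's cytoplasmic tail, Dab2 as a clathrin adaptor and Ankra2 as an ankyrin repeat protein. Dab2 read 1917, 2250.5 and 2505 with C-peptide and 1899 and 1718 without, a log2 difference of 0.29 ± 0.16 (SE; 95% interval -0.10 to 0.67; limma adjusted p = 0.557). C-peptide animal 1 and untreated animal 1 were nearly level for this gene. Macrophages also make Dab2, and 9 of 9 immune cell markers were lower on the C-peptide arrays (median log2 difference -0.49; summed intensities 4808 to 6571 against 6876 to 8174, no marker at 0); their part in the Dab2 value was not tested. Ankra2 read 161, 180.5 and 177 with C-peptide and 134 and 159 without, so that C-peptide animal 1 and untreated animal 2 were almost equal. Its log2 difference was 0.22 ± 0.15 (SE; limma adjusted p = 0.629), and its further probe set gave 0.18 ± 0.15 with overlapping groups.

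Clcn5 and Ocrl act on the endosome after uptake. Clcn5, the exchanger that supports acidification, read 590.2, 399 and 543 on the C-peptide arrays and 268 and 299 on the untreated ones. The groups did not overlap, but here animal 1, not animal 3, was the highest with C-peptide. Its means were 511 ± 99.5 (SD, n = 3) and 283 ± 21.9 (SD, n = 2), a log2 difference of 0.80 ± 0.19 (SE; 95% interval 0.35 to 1.25; limma adjusted p = 0.197, unadjusted p = 0.00399). In the deposited intensities it stood at 435, 458 and 546 against 303 and 325. There animal 3 was the highest with C-peptide and animal 1 the lowest, so the order depended on the scaling. Ocrl, the phosphatase that clears phosphatidylinositol bisphosphate from early endosomes, was dimmer than the median probe set. It read 58.7, 59.1 and 62.4 with C-peptide and 56.3 and 52.6 without, a log2 difference of 0.11 ± 0.13 (SE; 95% interval -0.20 to 0.42; limma adjusted p = 0.800).

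**Figure D1:**
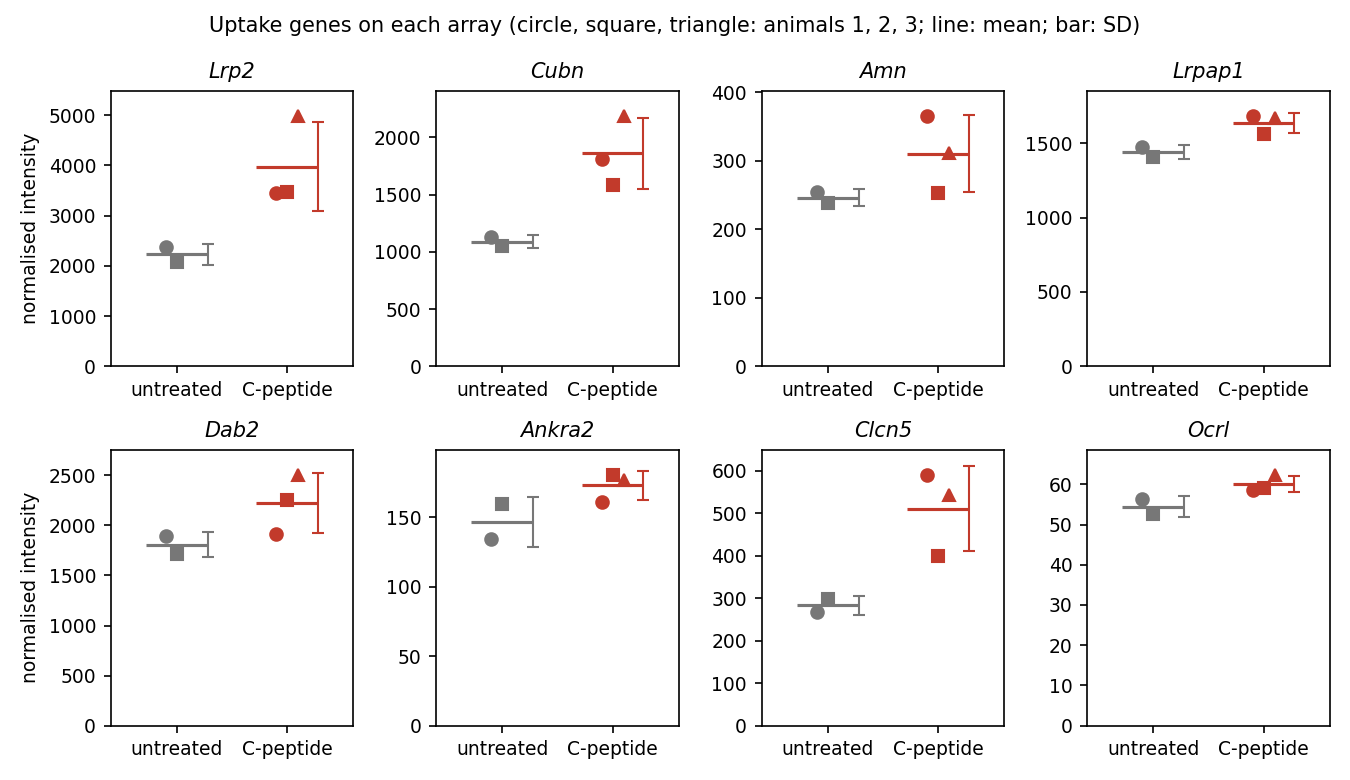
Normalised intensity (linear axis from 0) of the 8 uptake genes on each array; markers give the animal number, lines the group means and bars the SD (n = 2 untreated, n = 3 C-peptide). Lrp2, Cubn and Clcn5 have the C-peptide arrays well above the untreated ones (3444 to 4991 against 2086 and 2383 for Lrp2), and Amn is the gene whose groups overlap.

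In 7 of the 8 genes every C-peptide array lay above both untreated arrays, while 18.7% of all genes and 22% of the genes brighter than the median probe set did so, and in 14.9% of genes every C-peptide array lay below. That count depended on the scaling, at 3 of 8 in the values as deposited (Lrp2, Cubn and Clcn5) and 5 of 8 with arrays centred on their medians. The shares over all genes were taken in the quantile-normalised values only, so the counts of 3 and 5 have no matching share. The median log2 difference of the 8 was 0.30 beside 0.03 over all genes. All 8 differences were above 0, as were those of 7959 of the 14506 genes. Of the 8, Ocrl and Ankra2 turned to -0.02 and -0.01 in the values as deposited. The deposited values had a median difference of -0.13 over all probe sets, and relative to it Ocrl and Ankra2 were at 0.11 and 0.13 and Lrp2, Cubn and Clcn5 at 0.84, 0.70 and 0.72. Over all genes, 0.483% had a larger difference than Lrp2, 0.510% than Clcn5 and 0.683% than Cubn.

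The ratio of 2 genes on 1 array does not depend on a factor that scales the whole array, so ratios were taken from the deposited intensities. They still hold differences between arrays that vary with intensity, such as background, so the shifts are not free of the processing. The log2 ratio of Lrp2 to Lrpap1, receptor to chaperone, was 1.12, 1.16 and 1.64 on the C-peptide arrays and 0.63 and 0.59 on the untreated arrays, a shift of 0.70. For Cubn to Amn, receptor to membrane anchor, it was 2.49, 2.53 and 2.82 against 2.04 and 2.19, a shift of 0.50. The level of such a ratio depends on the probes, and the shift between groups is what compares. Lrp2 to Cubn shifted by 0.14 and Cubn to Clcn5 by -0.03, both with overlapping groups.

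Of the 28 pairs among the 8 genes, the ratios of 15 separated the groups without overlap, and these were the 15 that set Lrp2, Cubn or Clcn5 against 1 of the other 5, with shifts of 0.45 to 0.75 in favour of the former. The pairs share genes and arrays and are not independent, and the division into 3 and 5 was made after the values were seen. Ratios were not taken over pairs of other genes, so the count has no background share to be read against. In an exact permutation test, two-sided by doubling the smaller tail, each of the 15 had p = 0.2. That is the smallest value this form of the test can give with 3 arrays against 2, so no single ratio can pass at 0.05.

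**Figure D2:**
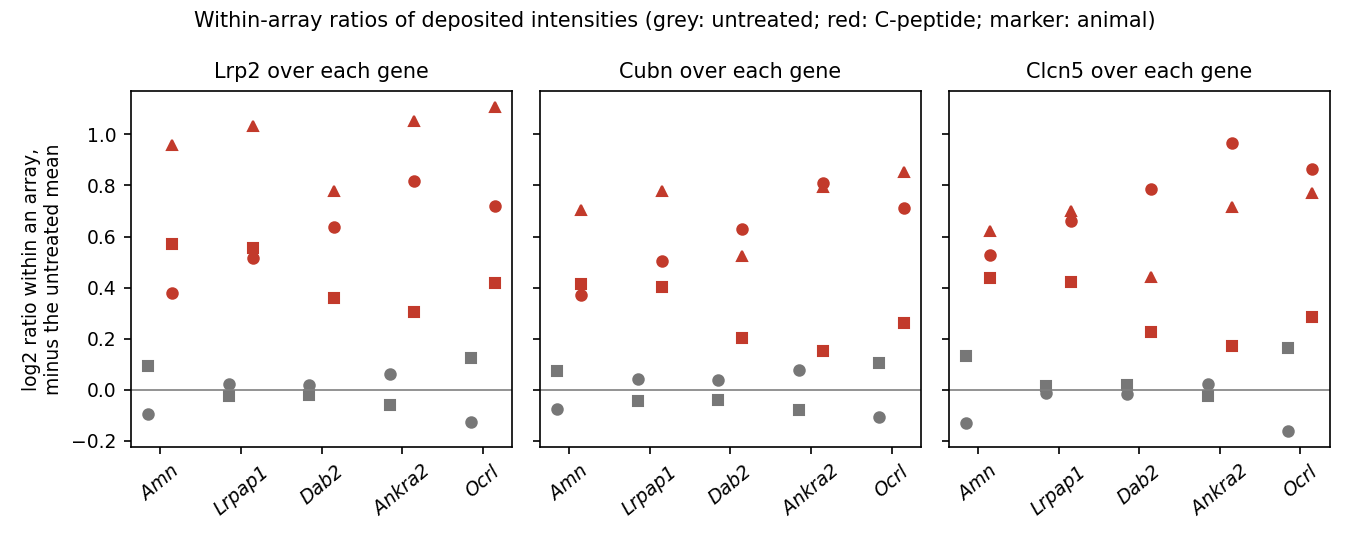
Log2 ratio of Lrp2, Cubn and Clcn5 to each of the other 5 genes on the same array, from deposited intensities, minus the mean of the untreated arrays; grey markers are untreated and red ones C-peptide arrays, with the marker shape giving the animal number. In all 15 columns the 3 C-peptide arrays lie above both untreated arrays, with mean shifts of 0.45 to 0.75. The genes were divided into these groups after the values were seen.

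The defining markers of the proximal tubule were present on every array, and markers of other cells were present too. The 18 proximal tubule markers summed to intensities of 37730 to 47600 on the C-peptide arrays and 28870 to 33770 on the untreated ones, with no marker at 0. Of these, 9 were higher at an unadjusted p under 0.05, where 5.95% of all genes were, and 0 at adjusted p 0.05 in limma. The smallest p were those of Kap (2.52 ± 0.29, SE), an androgen-regulated protein, and Slc7a13 (1.22 ± 0.14, SE), an amino acid transporter. The brightest of the 18, Pck1 of gluconeogenesis and Slc34a1, the phosphate transporter, were at 0.16 ± 0.17 and 0.30 ± 0.19 (SE). Endothelial markers ran the other way, 13 of 13 lower with a median of -1.15 and sums of 9224 to 14430 against 22260 to 26090, none at 0. At an unadjusted p under 0.05 in limma 12 of them were lower, beside 1036 of all 14506 genes, and 0 passed adjusted p 0.05. Podocytes, which in the rat also carry megalin, had 4 of 6 markers measured, with sums of 949.6 to 1540 against 2362 to 2997. Most of that sum was Podxl, which endothelium shares (-1.32 ± 0.26, SE; means of 983 against 2412), while nephrin, Nphs1, was at 0.11, Wt1 at -0.17 and Synpo at -0.64. The 6 markers of the thick limb and distal tubule gave a median of 0.16, 3 above 0 and 3 below, with Slc12a3, the thiazide-sensitive cotransporter, at 0.69 ± 0.23 (SE; unadjusted p = 0.0179) and sums of 8073 to 14050 against 9470 to 10580. Collecting duct markers had a median of 0.21 over 7 genes, 5 of them above 0 and 0 at an unadjusted p under 0.05 in limma, with sums of 2090 to 2994 against 2158 to 2702. In RNA from mixed cells, fewer cells of a type and less RNA per cell cannot be told apart, and the part of cell content in the members' values was not tested.

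The size of the members' differences was also set against that of the tubule's own genes. The mean log2 value of the 18 proximal tubule markers differed by 0.63 between the groups, and taking each array relative to it lowers the difference of every gene by that amount, so the order and spacing of the members stay as they were. On this scale Lrp2 was at 0.17 (95% interval -0.33 to 0.68), Cubn at 0.12 (-0.38 to 0.62) and Clcn5 at 0.16 (-0.34 to 0.67). The other 5, whose differences were smaller than that of the reference, were at values from -0.33 for Amn to -0.52 for Ocrl (95% interval -1.03 to -0.02; unadjusted p = 0.0418). The share of all genes at such a p on this scale was not taken. With Kap left out of the reference, Lrp2, Cubn and Clcn5 stood at 0.28, 0.23 and 0.27 and the other 5 at -0.22 to -0.41. Of the 18 markers, 3 had a larger difference than Lrp2 or Clcn5 (Kap, Slc7a13 and Slc22a6, an organic anion transporter) and 4 a larger one than Cubn, whereas 14 to 18 had a larger one than each of the other 5 members.

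**Figure D3:**
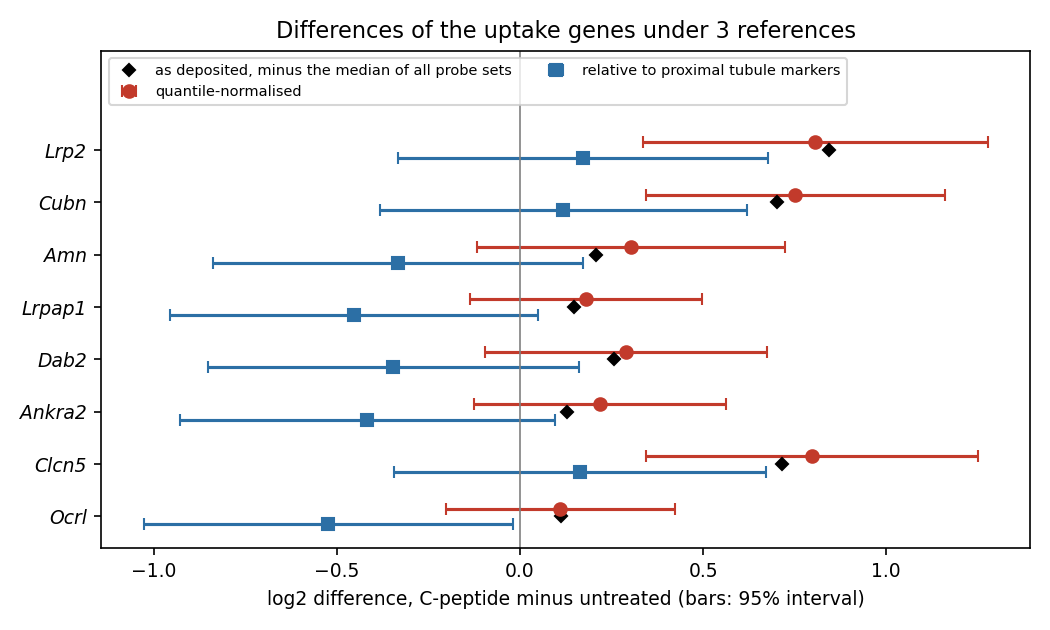
Log2 difference, C-peptide minus untreated, of each uptake gene after quantile normalisation (red circles), relative to the proximal tubule markers (blue squares; both with 95% intervals from limma) and as deposited after subtraction of the median probe set (black diamonds). Lrp2, Cubn and Clcn5 lie at 0.75 to 0.81 by the first measure and 0.12 to 0.17 by the second, which is the first less 0.63 for every gene.

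By the root-mean-square distance between log2 profiles centred on their own means over the 5 arrays, the genes most like Lrp2 among 8565 were Slc5a10, a mannose and fructose transporter (distance 0.086), Errfi1, an inhibitor of the EGF receptor (0.086), Ugt2b7, a glucuronosyltransferase (0.092), and Acot12, an acyl-CoA thioesterase (0.094). Cubn came next, at rank 5 (0.095). The other members were farther off, Clcn5 at rank 304, Dab2 at 505 and Amn, Lrpap1, Ankra2 and Ocrl at 1480 to 2219. The genes most like Cubn were Hdac6, a cytoplasmic deacetylase (0.0083), Dpys, of pyrimidine breakdown (0.029), Slc5a10 (0.037) and Gpat3, of glycerolipid synthesis (0.044), with Lrp2 at rank 19 and Clcn5 at 149. These distances describe 5 arrays only.

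Other genes of the uptake route were taken from lists of coat proteins, endosomes, exchangers, related receptors, ligands and regulators, of which 81 of 95 were measured. None of the 81 passed at adjusted p 0.05 in limma, 9 were higher and 2 lower at an unadjusted p under 0.05, and their median log2 difference was 0.01 beside 0.03 over all genes. Of all 14506 genes, 863 (5.95%) were higher and 1036 lower at that unadjusted p, and the counts of the single lists below have the same background.

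The general machinery of clathrin-coated pits and endosomes lay near 0. Of 18 coat proteins and adaptors, 0 were higher and 1 was lower at an unadjusted p under 0.05, with a median of -0.02. The clathrin heavy chain Cltc was at 0.19 ± 0.16 (SE), the uncoating chaperone Hspa8 at 0.01 ± 0.16, Ap2a2, a subunit of the AP2 adaptor, at 0.28 ± 0.14 and Epn2, an epsin, at -0.69 ± 0.22 (unadjusted p = 0.0159). Of 19 genes of endosomes and recycling 1 was higher, Vps35 of the retromer (0.37 ± 0.15, SE; unadjusted p = 0.0440), and the median was 0.00. Its partner Vps26a was at 0.23 ± 0.14, Rab7a of late endosomes at 0.15 ± 0.15 and Rab5c of early endosomes at -0.12 ± 0.15.

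Among 8 exchangers and apical scaffolds the median was 0.30, with 3 higher at an unadjusted p under 0.05 and none lower. Clcn4, the nearest relative of Clcn5 among these exchangers, read 157 ± 33.8 (SD, n = 3) with C-peptide and 81.3 ± 7.16 (SD, n = 2) without, a log2 difference of 0.81 ± 0.20 (SE; limma adjusted p = 0.197). Slc9a3, the apical sodium/proton exchanger, was at 0.60 ± 0.22 (SE) and Pdzk1, a scaffold of the brush border, at 0.47 ± 0.18, while the scaffold Nherf1 was at 0.15 ± 0.18.

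The other receptors of megalin's family gave a median of -0.13 over 10 measured genes, 1 higher and 0 lower at an unadjusted p under 0.05. Lrp12 was at 0.55 ± 0.15 (SE; unadjusted p = 0.00733), Lrp5 and Lrp6, co-receptors of Wnt signalling, at -0.46 ± 0.21 and -0.12 ± 0.15, and the sorting receptor Sort1 at -0.21 ± 0.24. Megalin's 0.81 was larger than the difference of each of these 10.

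Ligands and genes of vitamin handling had a median of 0.06 over 18 genes, 1 higher and 1 lower at an unadjusted p under 0.05. Gc, the vitamin D-binding protein that megalin retrieves, was dim, at 83.1 ± 22.4 (SD, n = 3) with C-peptide and 28.8 ± 3.23 (SD, n = 2) without (log2 difference 1.12 ± 0.22, SE; limma adjusted p = 0.136). B2m, a filtered ligand that nucleated cells make themselves, was at -0.42 ± 0.15 (SE), beside immune and endothelial markers at medians of -0.49 and -1.15 whose part was not tested, and Selenop, a selenium carrier, at -0.10 ± 0.16.

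Transcription regulators of the tubule had a median of 0.31 over 8 genes, with 3 higher and none lower at an unadjusted p under 0.05. Hnf4g was at 0.82 ± 0.15 (SE; limma adjusted p = 0.135), from 310.2 ± 16.9 (SD, n = 2) to 562 ± 67.3 (SD, n = 3), Nr1h4, the bile acid receptor, at 0.64 ± 0.20 and Hnf4a at 0.50 ± 0.19. The proximal tubule markers ranged from 0.16 to 2.52, the value of Kap, with a median of 0.50. Among them Kap, Slc7a13 and Slc22a6 had a larger difference than Hnf4g. The part of cell content in the values of these regulators was not tested.

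**Figure D4:**
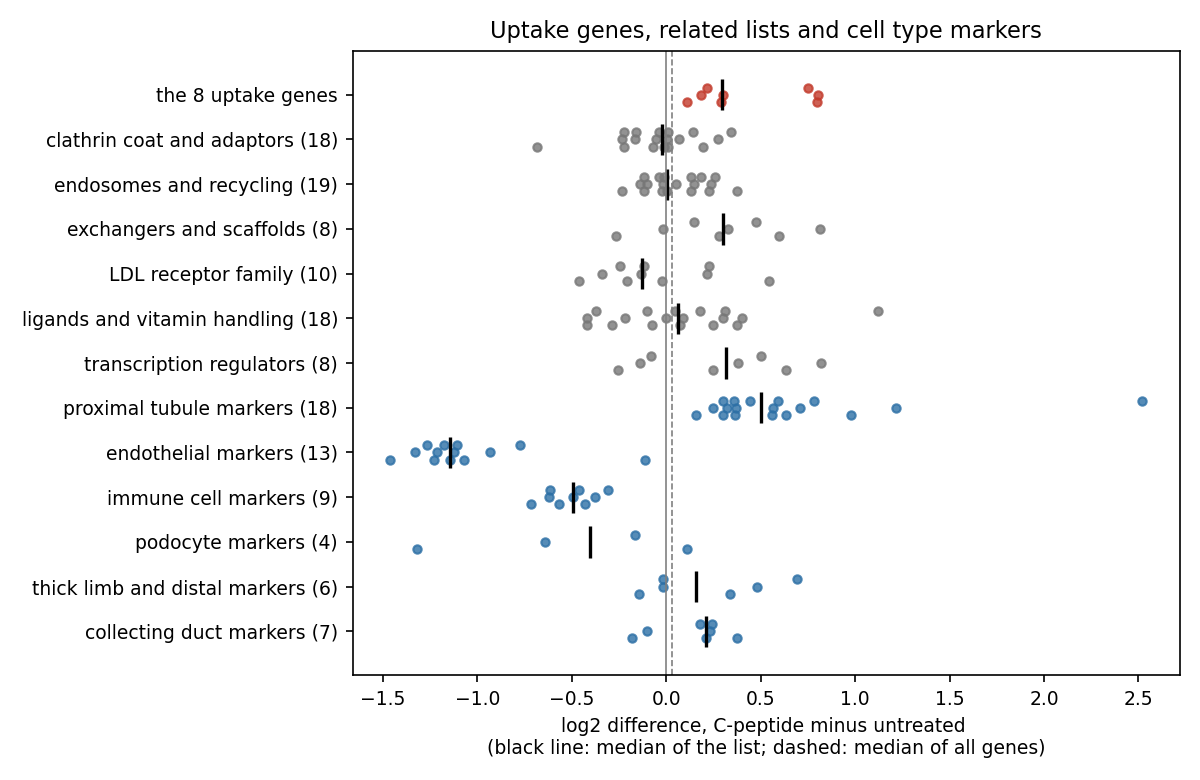
Log2 difference, C-peptide minus untreated, of every measured gene of each list (points), with list sizes in brackets, list medians as black lines and the median of all genes dashed. The 8 uptake genes (red) have a median of 0.30, coat and endosome genes medians near 0, and proximal tubule and endothelial markers medians of 0.50 and -1.15.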

How the data were processed

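The deposited intensities are probe-set values on a linear scale that, per the submitters' processing notes, the authors made with PLIER (Affymetrix Expression Console 1.1); their background correction, scaling and filters are not stated in the sources used. Array medians of 60.1 to 95.9 showed that the arrays did not share 1 distribution, so log2(intensity + 16) values were quantile-normalised, and normalised intensities are these values taken back to the linear scale. C-peptide was compared with untreated in limma 3.58.1 (R 4.3.3, lmFit and eBayes, two-sided, group as the only term), and p-values were adjusted by Benjamini-Hochberg over the whole table of 29215 probe sets; the script was tested on simulated data. A single symbol was paired with 15310 probe sets, of which 15279 were found in RefSeq. The number of arrays limits the precision. The labels name animals, but p-values measure only the spread between these arrays.

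Members and lists were chosen with earlier results of these data known. Named from each pathway list, and from the proximal tubule markers, were genes past adjusted p 0.05, the 2 with the smallest p and the 2 brightest; for likeness, the 4 nearest genes to Lrp2 and Cubn above the median intensity. Alternatives covered the scaling, pseudocounts, filters, variance prior, array weights, the animal number as a block, averaging of probe sets and leaving out each array.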

Additional observations from a re-analysis of the deposited data

How the results depend on the processing

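Lrp2, Cubn and Clcn5 were the members at an unadjusted p under 0.05 in the values as deposited, with arrays centred on their medians, at pseudocounts of 1 and 64, under both filters, with a trended variance prior, array weights and averaged probe sets. Leaving out each array gave 3 to 4 members. No member passed adjusted p 0.05 in any of these (lowest adjusted p = 0.0508). The count of probe sets past adjusted p 0.05 was 0 in the reported setting, 52 as deposited, 29 after centring, 1 and 121 at pseudocounts of 1 and 64, 392 among probe sets above the median, 341 among those with 1 symbol and 208 with the trended prior. Hnf4g passed with that prior and with the median filter (1 other uptake gene each), and Gc and Hnf4g with 1-symbol probe sets (2). The members without overlap were 3 as deposited, where Ocrl and Ankra2 were at -0.023 and -0.0060. No share over all genes was taken for that count.

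Relative to the proximal tubule markers, a reference added after the data were seen, 1 member (Ocrl) was at an unadjusted p under 0.05. On that scale 1 member (Cubn) lay above without overlap, while Amn, Dab2, Lrpap1 and Ocrl lay below both untreated arrays without overlap. Without Kap, 0 members were at that p and 2 lay above. Shares over all genes were not taken on this scale, so these counts have no background to be read against. Relative to all the markers, Amn, Dab2, Lrpap1, Ocrl and Ankra2 were at -0.33, -0.35, -0.45, -0.52 and -0.42, and without Kap at -0.22, -0.23, -0.34, -0.41 and -0.31.

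Deviations from the group means on arrays of equal animal number correlated at -0.025 and 0.0079. The deviations of 2 untreated arrays mirror each other, so these values cannot show whether equal numbers mean the same rat. With the number as a replicate block, 3 probe sets passed adjusted p 0.05 and the 3 members were the same, Lrp2 at 0.63, Cubn at 0.63 and Clcn5 at 0.75. Animal 3 has no untreated array, so the differences in that fit rest on animals 1 and 2, and C-peptide animal 3 adds nothing to them. Other alternatives kept the members' counts within 1.5 times. The groups of 3 and 2 arrays limit every comparison.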
